A study of Mus musculus with 19 samples.

Results

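Expression was compared between the Thy-6C3+CD105+ and the Thy-6C3-CD105+ cells of neonatal mouse limbs, which differ by label in 1 sorted antigen, 6C3. The members are the 3 arrays of each population, chosen by the population field of the labels, so 6 of the 19 arrays of the series, and 18193 genes were tested on them. The series profiled skeletal cells of fore and hind limbs at postnatal day 3 on Affymetrix mouse genome arrays, in 6 sorted populations of 3 arrays each, beside a single array of adult cells. The question addressed is which genes change with 6C3 when Thy stays negative and CD105 stays positive.

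The main comparison used Thy-6C3+CD105+ and Thy-6C3-CD105+ cells. Thy-6C3+CD105-, Thy-6C3-CD105- and Thy+6C3-CD105+ cells served for comparison. All of them were gated as CD45-, Ter119-, Tie2- and AlphaV+, which removes blood, red and Tie2-bearing endothelial cells and keeps cells with integrin alpha V. The genotype field calls the mice wild-type, and the growth protocol adds that P3 mice carried a GFP label. Limbs of a litter were pooled and digested with collagenase before staining, and RNA was amplified in successive rounds. Nothing in the labels says that replicates came from separate litters, so p-values measure the spread between these arrays, which may be technical. The arrays read bulk RNA, so fewer cells of a type and less RNA per cell cannot be told apart.

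6C3 is an antibody epitope on glutamyl aminopeptidase, a cell surface enzyme encoded by Enpep that trims acidic residues from peptides such as angiotensin II. The antigen is known from early B cells and from stromal lines that support blood cell growth. CD105 is endoglin, a co-receptor for TGF beta ligands, and Thy is a small glycoprotein of mesenchymal and immune cells. In the neonatal limb, cartilage is laid down by chondrocytes that make type II collagen and aggrecan, then stop dividing, enlarge and switch on type X collagen before bone replaces them. Joint surface, tendon and other connective tissue cells lie next to them and make a matrix of their own.

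Enpep, which checks the sort, had levels of 10.69, 10.93 and 10.90 in Thy-6C3+CD105+ arrays, against 7.57, 7.39 and 6.86 in Thy-6C3-CD105+ arrays. All levels here are log2 probe set values after quantile normalization. The groups did not overlap, and the difference was 3.57 ± 0.47 (SE; limma adjusted p = 0.000364), an 11.8-fold higher level. The other 6 sorted or stained antigens did not pass the test in this step. Thy1 averaged 5.50 ± 0.33 in 6C3+ and 5.46 ± 0.48 in 6C3- cells (SD, n = 3 each), and Eng, which encodes CD105, 8.49 ± 0.30 and 8.64 ± 0.23. Ptprc (CD45) and Tek (Tie2) stayed below the median gene level of 6.76 on every one of the 6 arrays.

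Genes were called at a Benjamini-Hochberg adjusted p under 0.05 over all genes, from a limma fit with 1 mean per population over the 18 neonatal arrays. The step called 247 genes, 1.36% of those tested. Of these 102 were higher in 6C3+ cells (0.561%) and 145 lower (0.797%), and 174 differed by at least 2-fold. These shares are the background for the counts of rises and falls in each gene list below. The median change over all genes was 0.00474. When each of the 6 arrays was left out in turn, the count lay between 105 and 209, and 87 of the 247 genes stayed called whichever array was missing. Weighting arrays by their estimated precision raised the count to 652. Poly-A spike-in controls stood apart between arrays, high in replicates 1 and 2 of Thy-6C3+CD105+ and replicates 1 and 3 of Thy-6C3-CD105+, and low in replicates 3 and 2 of these populations. With that split as a block the step called 354 genes, 246 of the 247 among them, and within the high set 87. Of the 68 named genes called, 27 were called within the high set. The low set holds 1 array of each compared population, so its calls are not counted here. In both sets all 68 kept their direction.

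**Figure D1:**
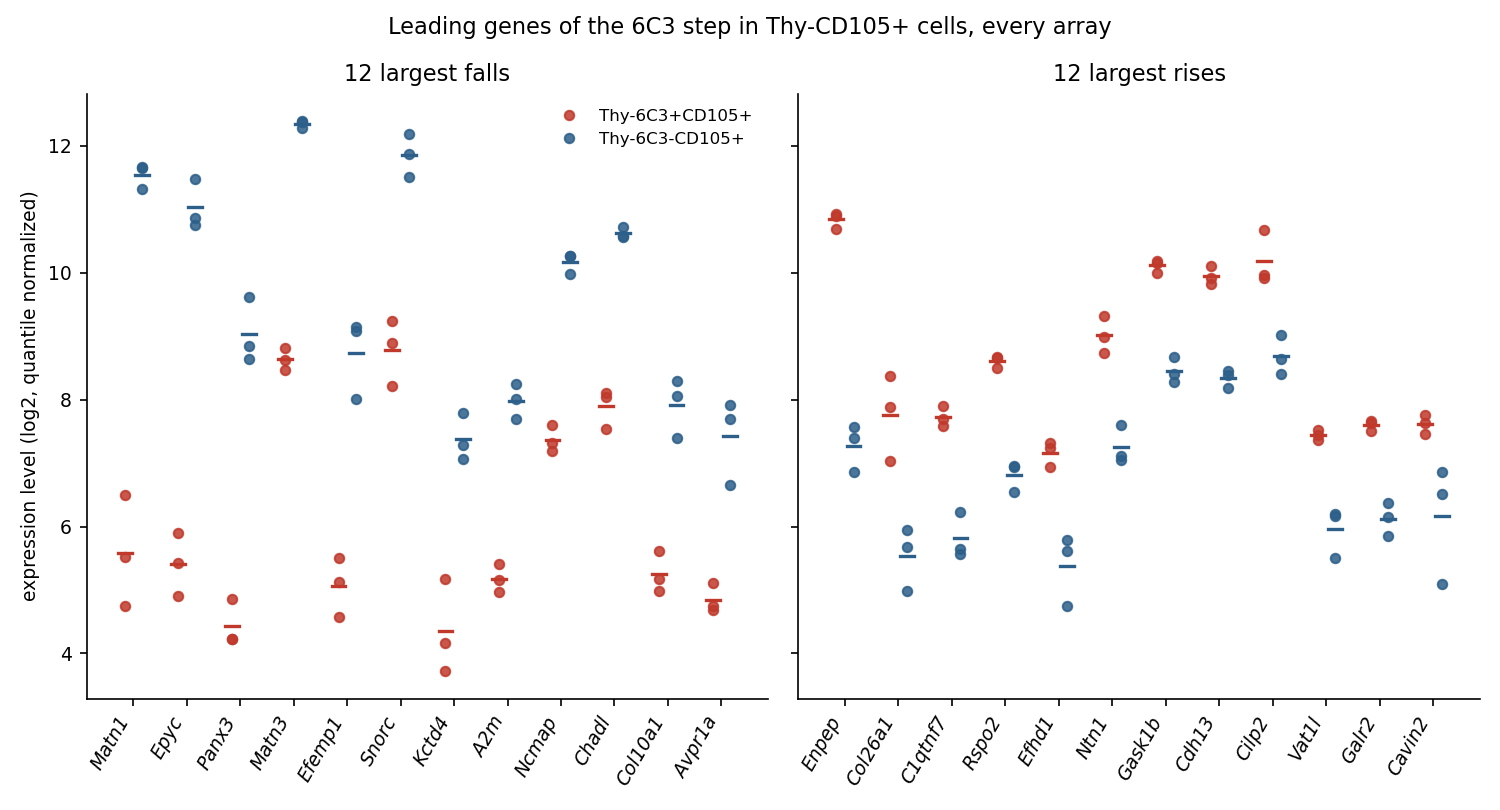
Log2 level (vertical axis) of the 12 genes with the largest falls (left) and the 12 with the largest rises (right) in the 6C3 step; each point is an array, Thy-6C3+CD105+ in red and Thy-6C3-CD105+ in blue, 3 each, and the bar is the mean. Groups do not overlap for any gene shown, which the naming rule required; Matn1 lies between 4.74 and 6.50 in 6C3+ arrays and between 11.31 and 11.66 in 6C3- arrays.

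The 2 largest falls, and the fourth, were in genes of the cartilage matrix, with Panx3, described below, between them. Matn1, which encodes matrilin 1, an adaptor that links collagen and proteoglycan, had levels of 6.50, 4.74 and 5.52 in Thy-6C3+CD105+ arrays, against 11.31, 11.66 and 11.65 in Thy-6C3-CD105+ arrays. All 6C3+ arrays lay below the median gene and all 6C3- arrays far above it. The change was -5.95 ± 0.34 (limma adjusted p = 1.40e-08). The table holds no detection calls, so whether the 6C3+ levels exceed background is unknown, and no fold is given for levels below the median gene. Epyc encodes epiphycan, a leucine-rich proteoglycan of the growth plate, and had 5.42, 4.91 and 5.90 in 6C3+ arrays, against 11.48, 10.87 and 10.75 in 6C3- arrays. It fell by 5.62 on the log2 scale, with an SE of 0.26 (adjusted p = 1.09e-09). Matn3 (matrilin 3) had 8.81, 8.47 and 8.62 in 6C3+ arrays, against 12.29, 12.39 and 12.37 in 6C3- arrays, a change of -3.72 ± 0.23 (adjusted p = 2.91e-08). Matn1, Epyc and Matn3, with Ucma, a secreted protein of young cartilage, were the 4 named genes called under every alternative of the closing section that measured them. Epyc was not measured in the alternative without shared-sequence probe sets.

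The sequences before the start sites of these 3 matrix genes, and of Enpep, are shown because the matrix genes fell together and Enpep marks the step. They hold 250 bases upstream of the RefSeq start in GRCm38.p6, read in the direction of the gene. SOX proteins, among them the cartilage regulators SOX9, SOX5 and SOX6, bind a short core, searched here as ACAAAG and ACAATG on both strands. TATAAA was searched on both strands too, no match shared bases with another, and capitals mark the matches. Matn1 lies at chr4:130944135-130944384 (+ strand), and the 2 Epyc starts at chr10:97643818-97644067 and chr10:97646853-97647102 (+). Matn3 lies at chr12:8947679-8947928 (+), and Enpep at chr3:129332750-129332999 (- strand).
Matn1: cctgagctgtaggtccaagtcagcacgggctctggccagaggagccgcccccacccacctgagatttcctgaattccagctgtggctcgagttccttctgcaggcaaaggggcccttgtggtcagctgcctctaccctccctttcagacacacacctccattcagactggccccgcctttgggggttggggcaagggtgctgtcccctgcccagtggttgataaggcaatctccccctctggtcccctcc
Epyc, upstream start: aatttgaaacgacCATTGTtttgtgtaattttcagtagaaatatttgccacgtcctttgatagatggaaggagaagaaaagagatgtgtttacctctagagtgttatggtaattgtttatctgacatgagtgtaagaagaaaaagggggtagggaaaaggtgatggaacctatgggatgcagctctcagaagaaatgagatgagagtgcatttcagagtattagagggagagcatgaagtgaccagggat
Epyc, downstream start: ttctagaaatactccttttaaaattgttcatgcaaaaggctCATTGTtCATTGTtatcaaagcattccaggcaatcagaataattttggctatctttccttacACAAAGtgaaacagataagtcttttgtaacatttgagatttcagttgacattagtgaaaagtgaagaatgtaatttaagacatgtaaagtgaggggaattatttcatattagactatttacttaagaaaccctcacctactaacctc
Matn3: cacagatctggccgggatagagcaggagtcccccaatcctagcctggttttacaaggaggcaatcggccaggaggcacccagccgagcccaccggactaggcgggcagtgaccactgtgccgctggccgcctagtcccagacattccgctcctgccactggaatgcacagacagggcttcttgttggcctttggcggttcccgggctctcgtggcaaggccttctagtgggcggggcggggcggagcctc
Enpep: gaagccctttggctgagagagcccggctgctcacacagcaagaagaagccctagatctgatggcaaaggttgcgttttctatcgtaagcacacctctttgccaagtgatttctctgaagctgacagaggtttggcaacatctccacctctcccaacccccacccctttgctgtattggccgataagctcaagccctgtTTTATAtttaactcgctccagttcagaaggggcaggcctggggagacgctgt

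The upstream Epyc window held 1 SOX core and the downstream window 3, and the Matn1 and Matn3 windows held none of the words searched. Enpep held 1 TATA match, its first base 52 bases before the start. Over all 32851 such windows, 25.2% held a SOX core and 12.4% a TATAAA match. Of the 12 fallen genes of the chondrocyte list 10 had a window in the table, and 1 of these, Epyc, had a SOX core. A match is a description of these letters, and a window without one says nothing about a factor.

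Of the 27 genes of the chondrocyte list, 0 rose and 12 fell, and their median change was -1.32. All 27 estimates were negative and 23 had 6C3+ arrays wholly below the 6C3- arrays, where 6.96% of all genes did so and 16.3% were separate in either direction. The 12 fallen genes were Matn1, Epyc, Matn3, Snorc, Ucma, Col9a2, Fgfr3, Mia, Col11a2, Susd5, Col9a3 and Otor. Ucma had 10.16, 9.80 and 9.56 in 6C3+ arrays, against 12.22, 12.29 and 12.44 in 6C3- arrays (-2.48 ± 0.24, adjusted p = 1.56e-05). Col9a2, a chain of the type IX collagen that coats cartilage fibrils, had 9.08, 8.80 and 9.08 in 6C3+ arrays, against 11.08, 11.50 and 11.21 in 6C3- arrays (-2.28 ± 0.21, adjusted p = 9.18e-06). Fgfr3, the receptor that restrains growth plate chondrocytes, had 9.25, 8.66 and 8.92 in 6C3+ arrays, against 11.11, 11.25 and 11.11 in 6C3- arrays (-2.21 ± 0.38, adjusted p = 0.00471). Each of these 3 genes separated the groups by more than a log2 unit. The calls of Mia, Col11a2 and Susd5 were lost without 2 of the 6 arrays (adjusted p up to 0.0713) and that of Otor without 5 (up to 0.265). The list count lay between 8 and 12 when single arrays were left out, lowest without replicate 3 of Thy-6C3-CD105+.

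Several genes that define cartilage did not pass. Col2a1, Comp and Acan are described here after their values were seen. Col2a1, the type II collagen that defines cartilage, had 13.63, 13.48 and 13.53 in 6C3+ arrays, against 14.11, 14.05 and 14.06 in 6C3- arrays. The groups did not overlap, but the difference of -0.53 ± 0.20 did not pass (adjusted p = 0.360). Its levels lie near the highest deposited values of these arrays, 14.34 to 14.52. Comp, a pentameric protein of cartilage and tendon, had 13.29, 13.41 and 13.50 in 6C3+ arrays, against 13.27, 13.52 and 13.46 in 6C3- arrays, a difference of -0.02 ± 0.13 with overlapping groups. Acan, the aggrecan core protein, averaged 12.33 ± 0.13 in 6C3+ and 12.91 ± 0.25 in 6C3- cells (SD, n = 3 each; -0.57 ± 0.23, adjusted p = 0.452). Sox9, the regulator of cartilage identity, averaged 9.13 ± 0.46 in 6C3+ and 10.62 ± 0.49 in 6C3- cells, and did not pass although the groups were apart (-1.49 ± 0.44, adjusted p = 0.143).

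Of 10 genes of the hypertrophic stage 0 rose and 4 fell in 6C3+ cells, with a median of -1.24. Panx3, a pannexin channel of maturing chondrocytes and osteoblasts, had 4.85, 4.23 and 4.23 in 6C3+ arrays, against 9.61, 8.64 and 8.84 in 6C3- arrays (-4.60 ± 0.31, adjusted p = 1.06e-07). Its other 2 probe sets averaged below the median gene level in both populations and differed by 0.06 and -0.50, so the value rests on 1 probe set, and the mean of the 3 was at -1.68. Col10a1, the type X collagen of hypertrophic cells, had 5.17, 4.98 and 5.62 in 6C3+ arrays, against 8.29, 8.06 and 7.40 in 6C3- arrays (-2.66 ± 0.27, adjusted p = 2.46e-05). Ihh, the hedgehog signal of prehypertrophic cells, had 5.15, 5.30 and 4.99 in 6C3+ arrays, against 7.32, 7.2 and 6.68 in 6C3- arrays (-1.92 ± 0.23, adjusted p = 0.000133). All 6C3+ arrays of these 3 genes lay under the median gene level. Sp7 (osterix), a regulator of bone formation, was at -1.20 ± 0.24 (adjusted p = 0.0154), and its call was lost without 4 of the 6 arrays (up to 0.0930). Mmp13, a collagenase of the last hypertrophic cells, ran the other way, at 7.90, 8.29 and 7.75 in 6C3+ arrays, against 7.38, 6.29 and 5.86 in 6C3- arrays, and did not pass (1.47 ± 0.41, adjusted p = 0.114).

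Ihh was also the 1 of 14 hedgehog genes called, and Ptch1, the receptor and target of the pathway, averaged 10.78 ± 0.18 in 6C3+ and 11.77 ± 0.13 in 6C3- cells without passing (-0.99 ± 0.28, adjusted p = 0.115). Of 15 osteoblast genes 0 rose and 2 fell, Sp7 and Smpd3, a sphingomyelinase needed for mineralization (-1.25 ± 0.26, adjusted p = 0.0204). The call of Smpd3 was lost without 4 of the 6 arrays (up to 0.155). Col1a1, the type I collagen of bone and fibrous tissue, had 13.93, 13.72 and 14.04 in 6C3+ arrays, against 12.13, 13.44 and 12.35 in 6C3- arrays, and did not pass (1.26 ± 0.32, adjusted p = 0.0623). Its 6C3- array of replicate 2 was nearest the 6C3+ arrays.

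Enzymes that build the sulfated side chains of proteoglycans gave 0 rises and 4 falls among 28 genes, with a median of -0.13. Of all genes 0.797% fell. Chst11, a chondroitin sulfotransferase, had 10.15, 9.85 and 9.44 in 6C3+ arrays, against 11.39, 11.26 and 11.55 in 6C3- arrays (-1.59 ± 0.19, adjusted p = 0.000164). Papss2, which makes the sulfate donor, had 10.62, 10.49 and 10.46 in 6C3+ arrays, against 11.68, 11.55 and 11.75 in 6C3- arrays (-1.14 ± 0.18, adjusted p = 0.00263). Both stayed called whichever of the 6 arrays was left out. Slc26a2, the sulfate transporter (-1.12 ± 0.22, adjusted p = 0.0114), and Csgalnact1, which starts the chondroitin chain (-0.97 ± 0.23, adjusted p = 0.0457), lost their calls without 3 and 5 of the arrays (up to 0.0951 and 0.287) and with the mean of their probe sets (0.0638 and 0.382). Among 15 small leucine-rich proteoglycans 0 rose and 2 fell, Epyc and Chadl (-2.73 ± 0.35, adjusted p = 0.000301), with a list median of 0.02.

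Further large falls were in genes with no shared list. Efemp1, a fibulin of elastic matrix, had 5.51, 5.12 and 4.58 in 6C3+ arrays, against 9.07, 8.01 and 9.14 in 6C3- arrays (-3.67 ± 0.52, adjusted p = 0.000754). Avpr1a, a vasopressin receptor, had 5.11, 4.68 and 4.75 in 6C3+ arrays, against 7.69, 7.92 and 6.66 in 6C3- arrays (-2.58 ± 0.35, adjusted p = 0.000540). A2m, a plasma-type protease inhibitor, had 5.15, 5.41 and 4.96 in 6C3+ arrays, against 8.24, 8.02 and 7.70 in 6C3- arrays (-2.81 ± 0.35, adjusted p = 0.000195). In all 3 genes the 6C3+ arrays lay below the median gene level. Kctd4 fell by 3.03 and Ncmap, known as a myelin protein of Schwann cells, by 2.80 on the log2 scale (adjusted p = 0.000617 and 1.46e-06). All 5 stayed called whichever of the 6 arrays was left out. Among forkhead factors Foxa3 and Foxa2 fell, 2 of 21, where 0.797% of all genes did so (-2.32 ± 0.39 and -1.96 ± 0.27, adjusted p = 0.00388 and 0.000485). Both have been described in maturing mouse chondrocytes.

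Secreted modulators of Wnt signalling moved in both directions. Frizzled-related proteins bind Wnt ligands, Dickkopf proteins and sclerostin block the LRP co-receptors, and Notum removes the lipid of the ligand, whereas R-spondins raise receptor levels through LGR proteins. Of 14 antagonists 1 rose and 3 fell. Sfrp5 had 6.62, 6.72 and 6.75 in 6C3+ arrays, against 8.99, 9.26 and 9.40 in 6C3- arrays (-2.52 ± 0.32, adjusted p = 0.000254). Sfrp1 had 7.39, 6.74 and 6.91 in 6C3+ arrays, against 9.18, 9.47 and 9.63 in 6C3- arrays (-2.41 ± 0.22, adjusted p = 7.46e-06). Apcdd1, a membrane-bound inhibitor, had 8.84, 8.70 and 8.30 in 6C3+ arrays, against 9.60, 9.84 and 9.73 in 6C3- arrays (-1.11 ± 0.18, adjusted p = 0.00245). These 3 stayed called whichever of the 6 arrays was left out. With the mean of a gene's probe sets Sfrp5 was at -1.52 and Sfrp1 at -1.42, still called, and Apcdd1 at -0.62 without a call (adjusted p = 0.106). Without shared-sequence probe sets Apcdd1 was at -1.10 and lost its call too (0.128). Dkk3, a divergent member of the Dickkopf family, rose, at 11.40, 11.56 and 11.81 in 6C3+ arrays, against 10.39, 10.81 and 10.33 in 6C3- arrays (1.09 ± 0.20, adjusted p = 0.00739; up to 0.0576 without replicate 3 of either population). Frzb, a frizzled-related protein of articular cartilage, averaged 8.72 ± 0.20 in 6C3+ and 9.97 ± 0.12 in 6C3- cells without passing (-1.25 ± 0.34, adjusted p = 0.0971). Notum was at -0.90 ± 0.25 (adjusted p = 0.116). The other 8 members, among them Wif1, Sfrp2, Sfrp4, Dkk1 and Dkk2, lay between -0.75 and 0.22 and did not pass.

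Among 9 R-spondins and their receptors 2 rose and 1 fell. Rspo2, which acts in limb outgrowth, had 8.66, 8.68 and 8.49 in 6C3+ arrays, against 6.94, 6.95 and 6.55 in 6C3- arrays (1.8 ± 0.37, adjusted p = 0.0164). Lgr5, an R-spondin receptor, had 7.37, 7.40 and 8.01 in 6C3+ arrays, against 6.08, 6.48 and 6.30 in 6C3- arrays (1.31 ± 0.26, adjusted p = 0.0119). Rspo3, known from vessel and bone development, went the other way, at 6.19, 6.10 and 5.53 in 6C3+ arrays, against 8.02, 7.34 and 7.95 in 6C3- arrays (-1.83 ± 0.29, adjusted p = 0.00245). The groups were apart in all 3 genes. Rspo3 stayed called whichever array was left out, Rspo2 lost its call without 5 of the 6 arrays (up to 0.106), and Lgr5 without 3 (up to 0.0926). A second Rspo2 probe set, at 5.98 in 6C3+ and 5.97 in 6C3- cells, did not separate them. With the mean of a gene's probe sets Rspo3 was at -0.78 (adjusted p = 0.108) and Lgr5 at 0.70 (0.0505), both without a call, and Rspo2 at 0.90 with one (0.0226). Of 19 Wnt ligands and 23 Wnt receptors and targets 0 were called by limma, and 2 and 5 were at an unadjusted p under 0.05.

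**Figure D2:**
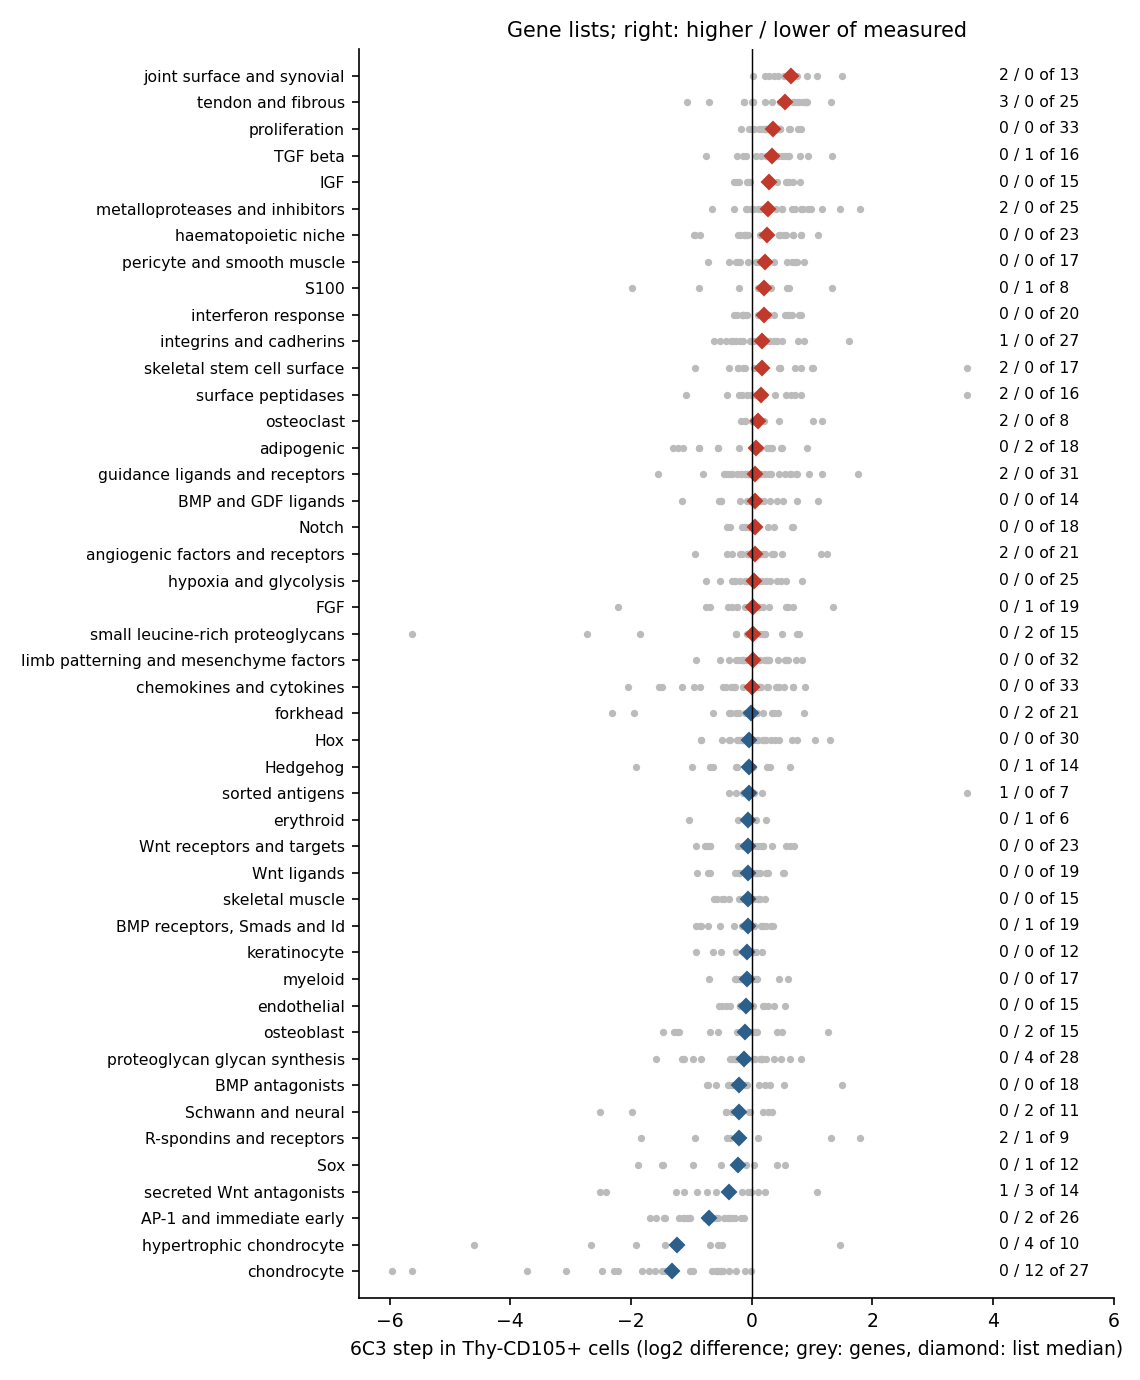
Log2 change in the 6C3 step (horizontal axis) of the genes of each list shown (grey points). The diamond is the list median, red above 0 and blue below it. The black line is the median of all genes, 0.00474, and the text at the right gives genes higher, lower and measured. Of the lists shown, chondrocyte and hypertrophic have the lowest medians, -1.32 and -1.24, and joint surface and tendon the highest, 0.65 and 0.54. The matrilins list, with 4 genes measured and a median of -1.92, is too short to be shown.

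In the list of 25 genes of tendon and fibrous matrix 3 rose and 0 fell, with a median of 0.54, and 15 had 6C3+ arrays wholly above the 6C3- arrays, where 9.31% of all genes did so. Thbs4, a thrombospondin of tendon and muscle junctions, had 12.48, 12.62 and 12.73 in 6C3+ arrays, against 11.30, 11.55 and 11.02 in 6C3- arrays (1.32 ± 0.26, adjusted p = 0.0125). Col14a1, a fibril-associated collagen of dense connective tissue, had 13.07, 12.997 and 13.12 in 6C3+ arrays, against 12.08, 12.36 and 12.18 in 6C3- arrays (0.86 ± 0.14, adjusted p = 0.00335). Tnc (tenascin C), a matrix glycoprotein of tendon and repair, was at 0.70 ± 0.15 (adjusted p = 0.0204). Col14a1 stayed called whichever array was left out but not without shared-sequence probe sets (adjusted p = 0.0577), and Thbs4 and Tnc each lost their call without 4 of the 6 (up to 0.0959 and 0.136). Without a single array the list count fell to 1 in 4 of the 6 cases, in the absence of replicate 2 or 3 of Thy-6C3+CD105+ or replicate 1 or 3 of Thy-6C3-CD105+. Tnmd, a tendon membrane protein, had 11.95, 11.29 and 11.41 in 6C3+ arrays, against 10.88, 10.66 and 10.39 in 6C3- arrays, and did not pass (0.91 ± 0.53, adjusted p = 0.843).

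Of 13 joint surface and synovial genes 2 rose and 0 fell, with a median of 0.65 and all 13 estimates positive. Cilp2, a protein of cartilage intermediate layers and tendon, had 9.92, 9.96 and 10.68 in 6C3+ arrays, against 8.41, 9.02 and 8.64 in 6C3- arrays (1.5 ± 0.31, adjusted p = 0.0195; lost without 4 of the 6 arrays, up to 0.130). Dkk3 was the other. Prg4, the lubricin of the joint surface, had 14.11, 14.11 and 13.78 in 6C3+ arrays, against 13.68, 13.44 and 13.76 in 6C3- arrays, and Gdf5, the factor that marks forming joints, 9.13, 9.06 and 9.2 in 6C3+ arrays, against 8.50, 8.25 and 8.41 in 6C3- arrays. Neither gene passed, although no arrays overlapped: Prg4 differed by 0.37 ± 0.32 and Gdf5 by 0.74 ± 0.26 (adjusted p = 0.285 for Gdf5). Prg4 was chosen after its values were seen.

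Among matrilins the 4 members differed in direction. Matn2, the matrilin of loose and fibrous tissue, had 11.66, 11.50 and 11.61 in 6C3+ arrays, against 10.69, 10.35 and 9.81 in 6C3- arrays, while Matn1 and Matn3 fell. Its rise of 1.31 ± 0.29 passed (adjusted p = 0.0258) but was lost without 5 of the 6 arrays (up to 0.192) and with the mean of its probe sets (0.91). Matn4 had overlapping groups and a difference of -0.12 ± 0.29.

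The remaining leading rises were in secreted, surface and membrane genes. Col26a1, a collagen with short triple helices, had 7.04, 7.88 and 8.38 in 6C3+ arrays, against 5.95, 5.67 and 4.98 in 6C3- arrays (2.23 ± 0.38, adjusted p = 0.00388). Its second probe set, of lower level, was at -0.44, so this rise rests on 1 probe set. C1qtnf7, a secreted C1q-like protein, had 7.70, 7.91 and 7.58 in 6C3+ arrays, against 6.23, 5.64 and 5.57 in 6C3- arrays (1.91 ± 0.31, adjusted p = 0.00267). Cdh13, a cadherin without a cytoplasmic part, had 9.92, 10.10 and 9.83 in 6C3+ arrays, against 8.45, 8.18 and 8.39 in 6C3- arrays (1.61 ± 0.28, adjusted p = 0.00506). Gask1b, a Golgi kinase relative, had 10.16, 10.19 and 9.999 in 6C3+ arrays, against 8.67, 8.41 and 8.27 in 6C3- arrays (1.67 ± 0.20, adjusted p = 0.000138). Galr2, a galanin receptor, rose by 1.48 ± 0.21 (adjusted p = 0.000821). These 5 stayed called whichever of the 6 arrays was left out. Ntn1 (netrin 1, an axon guidance ligand), Efhd1, Vat1l and Cavin2 (a component of caveolae) rose by 1.46 to 1.78, and their calls were lost without 3 to 5 of the 6 arrays (adjusted p up to 0.226). With the mean of a gene's probe sets Ntn1 was at 0.73, Cavin2 at 0.82 and Col26a1 at 0.89, all without a call.

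Several other lists had 1 or 2 called genes, where 0.561% of all genes rose and 0.797% fell. Such small counts are given as single genes and not as results about the lists. Ntn1 and Sema3b, a semaphorin (1.16 ± 0.24, adjusted p = 0.0160), were the 2 rises among 31 guidance genes. Vegfc, the growth factor of lymphatic vessels (1.25 ± 0.30, adjusted p = 0.0455), and Angptl4 (1.15 ± 0.26, adjusted p = 0.0295) were the 2 among 21 angiogenic genes. Ctsk, the collagen-degrading cathepsin of osteoclasts and some stromal cells (1.02 ± 0.20, adjusted p = 0.0123), and Mmp9, a gelatinase (1.16 ± 0.25, adjusted p = 0.0226), were the 2 rises among 8 osteoclast genes, and Acp5, another osteoclast enzyme, did not pass (0.45 ± 0.19, adjusted p = 0.506). Dlk1 and Scd1 fell, 2 of 18 adipogenic genes (-0.88 ± 0.21 and -0.87 ± 0.19). Sox8, a relative of Sox9, was the 1 fall among 12 Sox genes (-1.88 ± 0.36, adjusted p = 0.0106). Each of these calls was lost without at least 1 of the 6 arrays, at adjusted p of up to 0.284. With the mean of a gene's probe sets Angptl4 was at 0.64, Sema3b at 0.71, Dlk1 at -0.64 and Scd1 at -0.86, all without a call. Without shared-sequence probe sets Angptl4 was at 0.14 and Dlk1 at -0.41, again without a call.

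Genes with which bone marrow stroma supports blood cells gave 0 calls by limma among 23 members, 6 of them at an unadjusted p under 0.05, with a list median of 0.25. Of the 23, 5 had 6C3+ arrays wholly above the 6C3- arrays and 1 wholly below, where 9.31% and 6.96% of all genes did so. Cxcl12, the chemokine that holds blood stem cells in the marrow, had 9.31, 9.59 and 8.92 in 6C3+ arrays, against 8.95, 8.50 and 8.31 in 6C3- arrays (0.69 ± 0.27, adjusted p = 0.438). The lowest 6C3+ array lay just under the highest 6C3- array. Bmp4, a bone morphogenetic protein, had 8.92, 8.75 and 8.59 in 6C3+ arrays, against 7.68, 7.6 and 7.66 in 6C3- arrays, and missed the threshold with separate groups (1.11 ± 0.30, adjusted p = 0.0914). Angpt1, a ligand of Tie2, averaged 6.53 ± 0.34 in 6C3+ and 7.46 ± 0.31 in 6C3- cells (-0.93 ± 0.31, adjusted p = 0.250). Kitl, the stem cell factor, Vcam1, an adhesion molecule for blood cells, and Lepr, a marrow stroma receptor, had overlapping groups. With array weights up to 3 members of the list were called. Of 18 BMP antagonists 0 were called too, 2 at an unadjusted p under 0.05, with a median of -0.20, and Nbl1 had the largest estimate (1.5 ± 0.47, adjusted p = 0.186).

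Immediate early genes respond quickly to stress or growth factors, and many encode transcription factors. Of 26 members 0 rose and 2 fell in 6C3+ cells, all 26 estimates were negative, and the median was -0.71. Junb had 10.18, 10.34 and 9.21 in 6C3+ arrays, against 11.94, 11.12 and 11.75 in 6C3- arrays (-1.69 ± 0.33, adjusted p = 0.0110). Ccn2, a matrix-linked growth factor of cartilage, had 12.18, 12.34 and 12.04 in 6C3+ arrays, against 12.86, 12.79 and 13.18 in 6C3- arrays (-0.76 ± 0.13, adjusted p = 0.00504). The groups were apart in both genes. Junb lost its call without replicate 3 of Thy-6C3+CD105+ or replicate 1 or 3 of Thy-6C3-CD105+ (up to 0.0788), and Ccn2 without replicate 3 of Thy-6C3-CD105+ (0.0542). Without that array 0 members of the list were called. Nr4a1 and Nr4a3, nuclear receptors of the same early response, are given after their values were seen because they follow the spike-in split. Nr4a3 had 9.96, 9.92 and 6.93 in 6C3+ arrays, against 10.85, 7.89 and 11.17 in 6C3- arrays, and its lowest array in each population was the one with low poly-A controls. Nr4a1 had its lowest value in the same arrays, 10.33 in 6C3+ and 12.02 in 6C3- cells. The part of the spike-in split in these genes was not tested.

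Lists of markers of other cell types differed in how they compared. Summed on the linear scale, 15 endothelial markers ranged from 1580 to 1968 in 6C3+ and from 1225 to 1778 in 6C3- arrays, with 0 called and 2 at an unadjusted p under 0.05. The 17 myeloid markers ranged from 849 to 987 in 6C3+ and from 921 to 1161 in 6C3- arrays, and the 15 muscle and 12 keratinocyte markers gave 0 calls as well. The sums of 17 pericyte and smooth muscle markers overlapped, at 10671 to 12460 in 6C3+ and 9694 to 12590 in 6C3- arrays. The Schwann and neural sums did not overlap, at 694 to 758 in 6C3+ and 1454 to 1526 in 6C3- arrays, and 2 of 11 fell, Fabp7, a fatty acid binding protein (-2.51 ± 0.25, adjusted p = 2.00e-05), and S100b, a calcium binding protein that chondrocytes make too (-1.98 ± 0.39, adjusted p = 0.0124; up to 0.0838 without 2 of the arrays). Sox10, which defines that lineage, averaged 6.85 ± 0.49 in 6C3+ and 7.06 ± 0.35 in 6C3- cells. The sums of 6 erythroid markers did not overlap either, at 1267 to 1308 in 6C3+ and 2285 to 2518 in 6C3- arrays. Tfrc, the transferrin receptor of dividing cells, was the 1 called, and fell by 1.04 on the log2 scale (adjusted p = 0.0195; lost without any 1 of the 6 arrays, up to 0.106, and at -0.41 without a call with the mean of its probe sets), and Hba-a1, a globin gene, averaged 4.03 ± 0.08 in 6C3+ and 4.26 ± 0.64 in 6C3- cells. The sums of 8 osteoclast markers, whose 2 calls are given above, were higher, at 5406 to 6020 in 6C3+ and 2409 to 3584 in 6C3- arrays. Linear sums follow the members of highest level. The median changes of the Schwann and neural, erythroid and osteoclast lists were -0.21, -0.05 and 0.11. Only 2, 1 and 2 of their members lay above the median gene level. The part of such cells in the results was not tested. Of 33 proliferation genes 0 were called and 3 were at an unadjusted p under 0.05, with a median of 0.36 and 31 estimates positive.

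The same 6C3 step can be read in CD105- cells, in arrays that share no sample with the CD105+ step. There Thy-6C3+CD105- minus Thy-6C3-CD105- called 498 genes, 2.74% of those tested, 226 higher (1.24%) and 272 lower (1.5%). Both steps called 214 genes in the same direction, 84 higher and 130 lower, and 0 in opposite directions. That is 86.6% of the 247 genes of the CD105+ step and 43.0% of the 498. The arrays are separate, but both steps came from the same limma fit and share each gene's estimate of spread. Their calls are therefore not independent tests, and the part of the shared spread in the overlap was not tested. All 247 had the same sign in CD105- cells, with a median absolute change of 1.23 in the CD105+ step and 1.31 in the CD105- step. Across all genes the changes of the 2 steps had a Pearson r of 0.602, a description across genes that are not independent replicates. The overlap fell to 98 genes without replicate 2 of Thy-6C3+CD105+, 99 without replicate 3 of Thy-6C3-CD105+ and 109, 121 and 137 without replicate 3 of Thy-6C3+CD105+, replicate 1 of Thy-6C3-CD105+ and replicate 1 of Thy-6C3+CD105+. The titles of replicates 2 and 3 of Thy-6C3+CD105- name Thy+ where their population field names Thy-, and with grouping by title the overlap was 128.

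**Figure D3:**
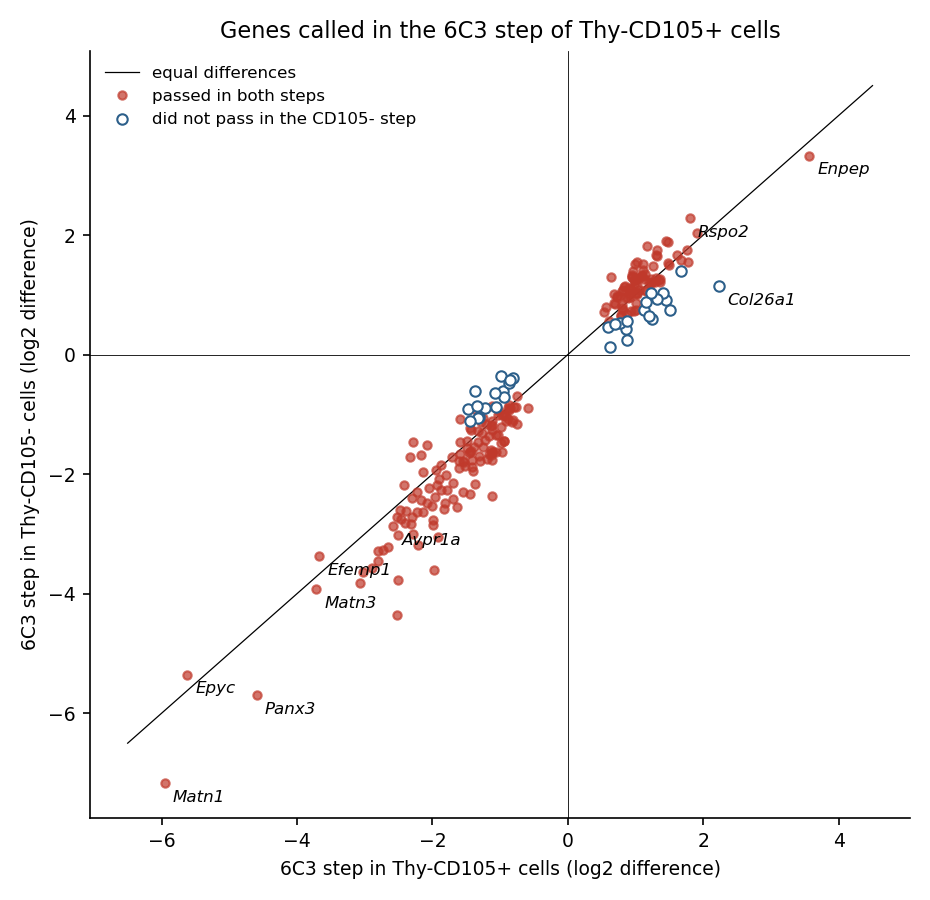
Log2 difference of the 6C3 step in Thy-CD105+ cells (horizontal axis) and in Thy-CD105- cells (vertical axis) for the 247 genes called in the CD105+ step; filled points passed in both, open points did not pass in the CD105- step, and the diagonal marks equal differences. All 247 points lie in the lower left or upper right quadrant, and 33 are open.

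Matn1 differed by -5.95 ± 0.34 in the CD105+ step and -7.17 ± 0.34 in the CD105- step, and Epyc by -5.62 ± 0.26 and -5.35 ± 0.26 in the same order of steps. Enpep differed by 3.57 ± 0.47 in CD105+ and 3.33 ± 0.47 in CD105- cells. Col26a1, 1 of the 33 genes not called in CD105- cells, was at 2.23 ± 0.38 in CD105+ and 1.15 ± 0.38 in CD105- cells (adjusted p = 0.138 there). The difference of the 2 steps was tested for every gene as an interaction in limma. It called 0 genes, with 543 at an unadjusted p under 0.05, 19 of them among the 247, and a smallest adjusted p of 0.665. No call of a difference does not show that the steps are equal. The chondrocyte list gave 0 rises and 15 falls in CD105- cells and a median of -1.08.

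The Thy step, Thy+6C3-CD105+ minus Thy-6C3-CD105+, starts from the same Thy-6C3-CD105+ arrays, so its values and those of the 6C3 step share their baseline. It called 1211 genes (6.66%), 733 higher (4.03%) and 478 lower (2.63%). Of the 27 chondrocyte genes, 12 fell in the 6C3 step and 26 in the Thy step, where the background of falls was 2.63%, with medians of -1.32 and -2.46. The 6C3+ and Thy+ populations were therefore compared directly. Thy-6C3+CD105+ minus Thy+6C3-CD105+ called 471 genes (2.59%), 160 higher in 6C3+ cells (0.879%) and 311 lower (1.71%), and without single arrays the count lay between 291 and 338. This comparison shares the Thy-6C3+CD105+ arrays with the 6C3 step.

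**Figure D4:**
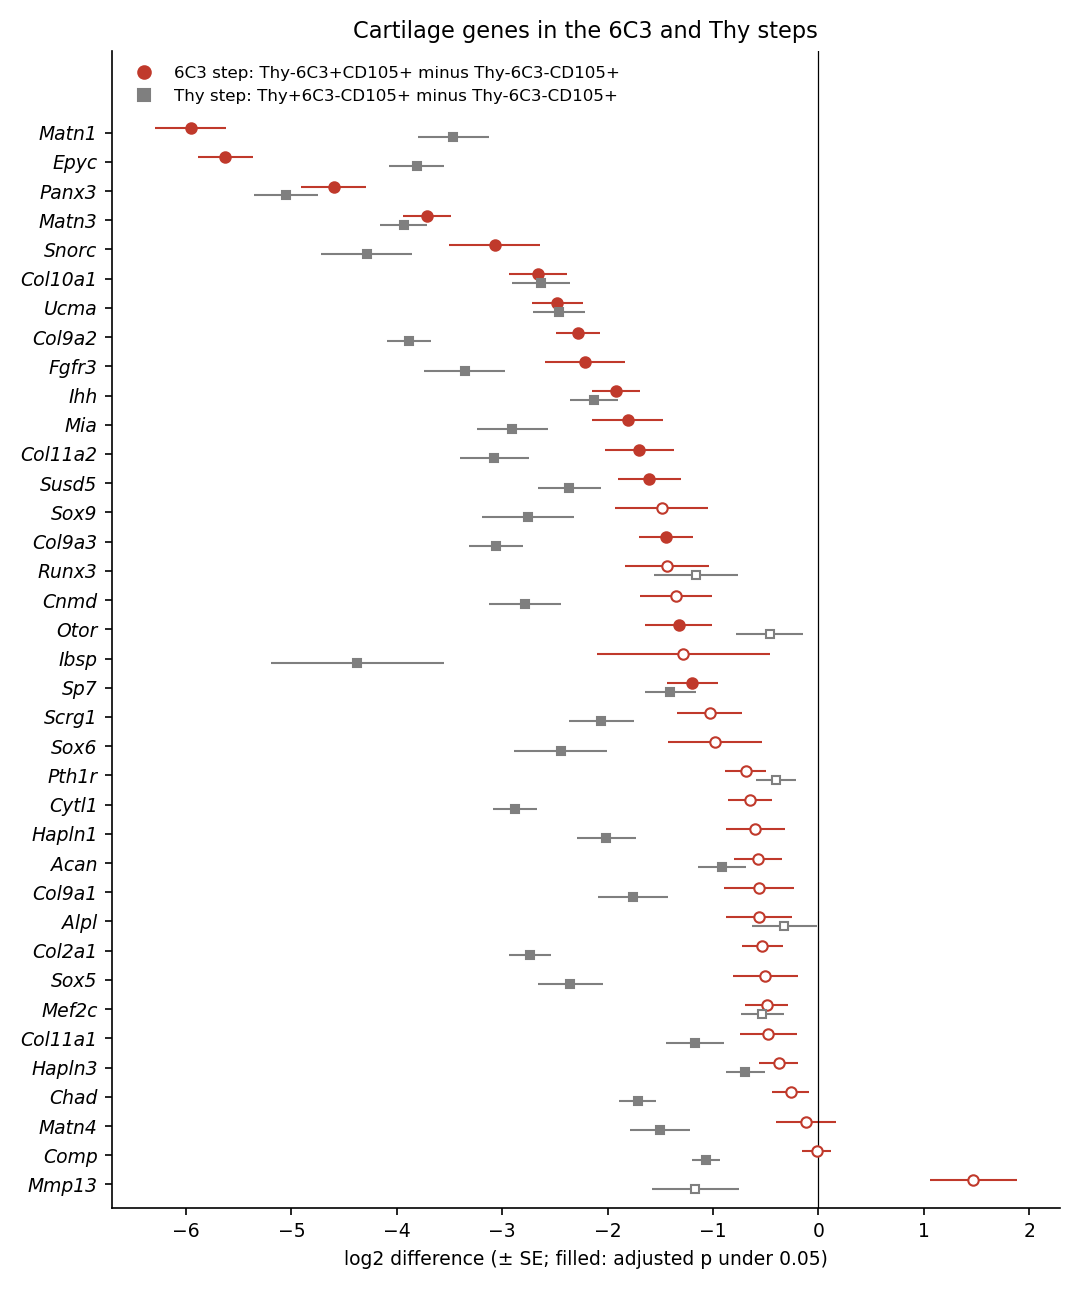
Log2 difference (horizontal axis, ± SE) of each chondrocyte and hypertrophic gene in the 6C3 step (red circles) and in the Thy step (grey squares), with filled marks for an adjusted p under 0.05; the steps share the Thy-6C3-CD105+ arrays. Matn1 and Epyc lie further left in the 6C3 step, at -5.95 and -5.62, while Col2a1 is at -0.53 in the 6C3 step and -2.74 in the Thy step.

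Cartilage genes were split in the direct comparison, with 11 of the 27 chondrocyte genes higher in 6C3+ cells and 2 lower. Over all genes 0.879% were higher and 1.71% lower. Matn1 and Epyc were the 2 lower ones, at -2.49 and -1.81 in Thy-6C3+CD105+ minus Thy+6C3-CD105+ (adjusted p = 0.000185 and 0.000374). Col2a1 averaged 13.55 in 6C3+ and 11.34 in Thy+ cells, a difference of 2.21 (adjusted p = 2.63e-06). Comp was higher by 1.05 (adjusted p = 9.83e-05), and Col9a2 by 1.6 (adjusted p = 0.000139). Cytl1, a small secreted protein of cartilage, Chad, a collagen binding protein, and Sox5, given after their values were seen, were higher in 6C3+ cells by 2.23, 1.45 and 1.85. All of these stayed called whichever of the arrays compared was left out. Of other cartilage genes higher in 6C3+ cells, Col9a3 also kept its call whichever array was left out (limma adjusted p up to 0.00752). Some were less stable. Col11a2 lost its call without any 1 of the 6 arrays (limma adjusted p up to 0.131), Cnmd without 4 (up to 0.183) and Hapln1 without 1 (0.0531).

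Joint surface genes gave 7 higher and 0 lower of 13 in the direct comparison, with a median of 1.40, where 0.879% of all genes were higher. Prg4 averaged 14.00 in 6C3+ and 11.16 in Thy+ cells (2.84, adjusted p = 3.09e-05), and Gdf5 9.13 in 6C3+ and 7.10 in Thy+ cells (2.02, adjusted p = 0.000102). Cilp and Erg, a transcription factor of joint cartilage, were higher by 1.86 and 1.40, and Htra4 by 2.70, and these 3 were chosen after their values were seen. The 5 stayed called whichever array was left out, and the other 2, Cilp2 (1.23) and Hbegf (1.63), lost their call without any 1 of the 6 (up to 0.257). In the Thy step 6 of the 13 genes fell and 2 rose, where 2.63% and 4.03% of all genes did so.

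Pericyte genes gave 0 higher and 11 lower of 17, where 0.879% of all genes were higher and 1.71% lower. Among the lower ones, Rgs5 averaged 9.72 in 6C3+ and 12.22 in Thy+ cells (-2.50, limma adjusted p = 1.92e-05). Tendon and fibrous genes, 3 of which rose in the 6C3 step, gave 1 higher and 6 lower of 25, with a median of -0.12. In the Thy step 12 of these 25 rose and 1 fell, with a median of 0.75, where 4.03% and 2.63% of all genes did so. Of 23 genes of the blood cell support list, 1 was higher and 2 lower in 6C3+ than in Thy+ cells. Cxcl12 and Vcam1 were the lower ones, at -1.70 and -2.04 (limma adjusted p = 0.000920 and 5.45e-06). Foxc1 was the higher one, at 1.57 to 1.79 when single arrays were left out. Among Wnt modulators, Apcdd1 averaged lower in 6C3+ cells (-2.21, adjusted p = 1.31e-06), with Sfrp1 at -1.15 (adjusted p = 0.00484) and Rspo3 at -1.53 (adjusted p = 0.00479), while Frzb was at 2.14 and Notum at 1.71 (adjusted p = 0.000849 and 0.000526). Efemp1 and Avpr1a also stood apart from Thy+ cells, at -2.71 and -2.88 (adjusted p = 0.00540 and 7.22e-05). Enpep itself was 2.52 higher in 6C3+ than in Thy+ cells (adjusted p = 0.00404).

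**Figure D5:**
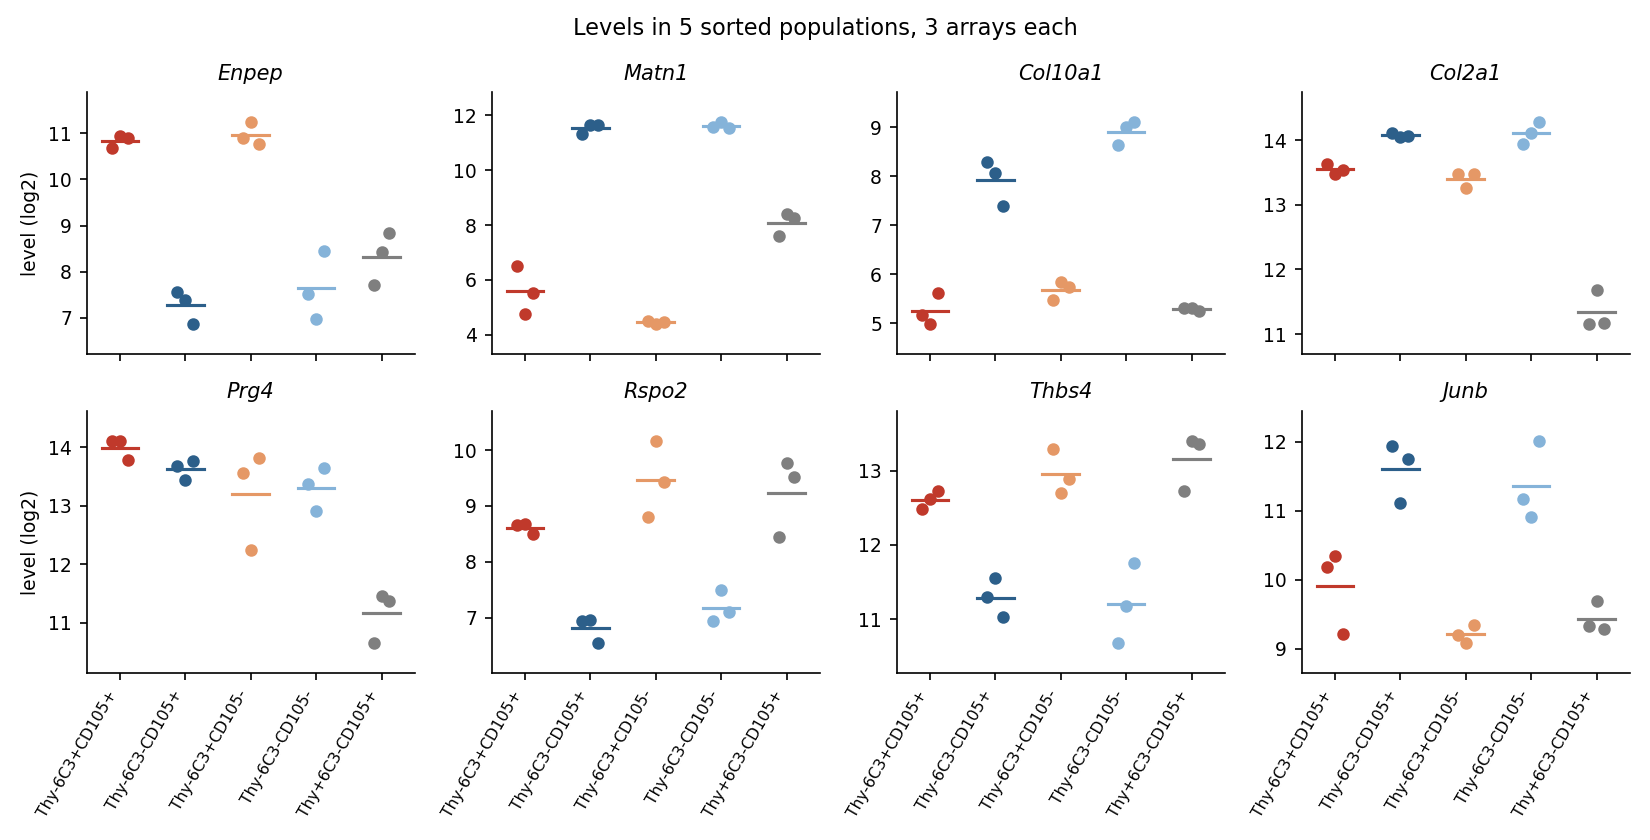
Log2 level (vertical axis, which does not start at 0) of 8 genes in 5 sorted populations of 3 arrays each; points are arrays and bars are means. Enpep is high in both 6C3+ populations and Matn1 is low in both, while Col2a1 and Prg4 are lowest in Thy+6C3-CD105+ cells.

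The genes whose levels most resembled Enpep over the 18 neonatal arrays were Cd1d1 (Pearson r 0.954), Retreg1 (0.942), Endod1 (0.924), Rap1gap2 (0.915), Rerg (0.895), Mustn1 (0.888), C1qtnf7 (0.888) and Galr2 (0.875). These are descriptions over arrays of 6 populations. They include the 6 arrays compared, so the differences of these genes in the 6C3 step, between 0.83 and 1.91, follow from the choice. Retreg1, a receptor of endoplasmic reticulum turnover, had 9.80, 10.06 and 9.88 in 6C3+ arrays, against 9.0, 8.51 and 8.53 in 6C3- arrays.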

How the data were processed

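Affymetrix mouse genome arrays of 19 sorted samples were used, 6 of them for the main comparison. The authors deposited log2 expression levels of 45101 probe sets per array. Per the labels' protocols RNA was amplified and arrays were read with GCOS; the normalization behind the deposited levels was not given in the sources used. Array medians ranged from 5.60 to 6.02, so quantile normalization over the 19 arrays was added. Control probe sets (64) were left out. GEO's platform annotation gave 1 symbol for 34945 probe sets, several for 932 and none for 9160. Where a gene had several probe sets, the one of highest average level in the 18 neonatal arrays stood for it, which left 18193 genes, with no filter on low levels. Groups came from the population field. limma 3.58.1 (R 4.3.3) fitted 1 mean per population, with eBayes and a trend (12 residual degrees of freedom), and p-values were Benjamini-Hochberg adjusted over all genes. Precision is limited by the number of arrays. The procedure was tested on simulated data.

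Genes named are the 12 largest rises and falls among called genes with separate groups and a higher mean above the median gene. To these were added, from each of 47 lists, up to 5 called and 3 further members with the largest changes, every sorted antigen, matrilin, secreted Wnt antagonist, R-spondin or receptor, BMP antagonist and niche gene, and the 8 genes most like Enpep. Others are marked as chosen after their values were seen. The comparison, the lists and their members were chosen with earlier results of these data known. Same-numbered arrays did not consistently deviate together (correlations of 0.59, -0.35 and 0.20 for the 3 pairs), so they were not treated as pairs. The highest correlation between arrays of unlike number, 0.52, joined replicate 3 of Thy-6C3+CD105+ with replicate 2 of Thy-6C3-CD105+. These are the compared arrays with low poly-A controls. Alternatives changed the scaling, filter, choice of probe set, variance model, arrays, blocks and grouping. RefSeq promoter windows of GRCm38.p6 were matched by symbol.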

Additional observations from a re-analysis of the deposited data

How the results depend on the processing

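The 6C3 step called 247 genes, 652 with array weights, 381 with only the compared arrays in the fit and 87 within the high poly-A set. The count lay between 105 and 279 when single arrays were left out. The cause of these shifts was not tested. The share of higher calls was 41.3%, against 52.9% with array weights, 27.8% without replicate 2 of Thy-6C3+CD105+ and 26.7% without replicate 3 of Thy-6C3-CD105+. Values as deposited gave 195 calls, a common median 171, the poly-A block 354. A replicate block, which the numbers do not justify as pairing, gave 241 calls, 224 of them among the 247, with 3 of 6 arrays correlating best with their own number. The comparison of Thy-6C3+CD105+ with Thy+6C3-CD105+ called 471 genes, 294 with only genes above the median level, 1500 with array weights and 291 to 338 without single arrays. The overlap of both 6C3 steps was 214 genes, 139 at a common median, 399 with array weights, 128 grouped by title and 98 to 221 without single arrays. These last 2 sets of alternatives, and leaving out replicate 2 of Thy-6C3+CD105- with its low hybridization controls, which gave 279 calls in the 6C3 step, were chosen after seeing the data. The interaction called 0 genes under every alternative run. Of 68 named genes called, 4 were called under every alternative that measured them and 63 lost the call under at least 1. Without shared-sequence probe sets 2 reversed, Col26a1 to -0.44 and Panx3 to 0.064. The alternatives include the low poly-A set, with 1 array of each compared population. For some genes, among them Chst11, Col9a2, Col10a1 and Sfrp1, the call was lost only within that set. Of 176 named genes not called, 68 were called under at least 1 alternative. The chondrocyte list had 5 to 16 falls and 0 rises under the alternatives, against 12 and 0.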

Other observations

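Genes in these paragraphs lie outside the naming rule and were chosen after their values were seen. They were picked singly and stand for no group. Vcl (vinculin, which anchors actin at adhesions) had 10.61, 10.62 and 10.68 in Thy-6C3+CD105+ arrays, against 9.84, 9.79 and 9.66 in Thy-6C3-CD105+ arrays (0.87 ± 0.15, limma adjusted p = 0.00541). Tpm2, a tropomyosin, rose by 0.93, Cav1, the caveolar coat protein, by 0.92 and Lgals1, a galectin, by 0.61 (adjusted p = 0.00473, 0.00473 and 0.00195), and all 4 kept the call whichever of the 6 arrays was left out. Tmsb4x (1.0), Anxa2 (0.60) and Vim (0.70) passed but lost the call without 3, 4 and 6 of the arrays.

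Single genes that fell are given next. Socs3, an inhibitor of cytokine signalling, fell by 1.44, Gadd45g by 1.53, Gadd45b by 1.32, Bcl3 by 1.45 and Tnfaip3, which restrains NF-kappa B, by 1.71 on the log2 scale, and each lost the call without 3 to 5 of the arrays (adjusted p up to 0.249).

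The following genes were also set against Thy+6C3-CD105+ cells, a comparison that shares the Thy-6C3+CD105+ arrays. Dio2, which activates thyroid hormone, had 10.14, 10.08 and 9.87 in Thy-6C3+CD105+ arrays, against 8.88, 8.75 and 8.49 in Thy-6C3-CD105+ arrays (1.32 ± 0.20, adjusted p = 0.00113), and was 1.83 higher than in Thy+ cells (adjusted p = 1.92e-05). Its other 2 probe sets differed by 0.14 and 0.64 in the 6C3 step. C1qtnf3, a secreted protein of cartilage, had 9.38, 9.27 and 8.83 in 6C3+ arrays, against 11.57, 11.28 and 11.50 in 6C3- arrays (-2.29 ± 0.26, adjusted p = 5.74e-05), with -2.12 against Thy+ cells. Both kept their calls whichever of the compared arrays was left out in the 6C3 step.

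Of 9160 probe sets without a symbol, 20 were called in a fit over 45037 probe sets, where 260 were called in all. Of these 20, 8 were higher and 12 lower in 6C3+ cells. The single adult array, which entered no test, had 8.43 for Enpep, 8.64 for Epyc and 4.95 for Matn1.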
